A study of Mus musculus with 2 samples.

Results

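Mesothelial markers and simple epithelial keratins were read in the whole omentum, the abdominal fat sheet that carries milky spots. The rule named 10 genes, and 9 of them had a value among the 24346 gene symbols measured in each library: the surface markers Msln, Lrrn4, Upk1b and Upk3b, the transcription factor Wt1, and the keratins Krt7, Krt8, Krt18 and Krt19. Muc16 was not analysed here. There was 1 library of WT mice and 1 of Postn-DTR mice, both given diphtheria toxin (DT) and both taken 5 days later. Postn-DTR mice are C57BL/6 heterozygotes that carry a diphtheria toxin receptor in the first coding exon of 1 Postn allele, so DT can kill any cell that uses the Postn promoter. The receptor is thus not limited to the omentum or to a single stromal cell type. Age, sex and whether a library pooled several mice are not given in the sources used here.

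Mesothelial cells form the single cell layer that covers the omentum and lines the peritoneal cavity. They share features of epithelium, such as keratin filaments, and of mesenchyme. Keratin filaments are built from pairs of a type I and a type II chain, and in simple epithelia Krt8 (type II) pairs with Krt18 (type I), while Krt7 and Krt19 are the further type II and type I chains. Mesothelin, the product of Msln, is a glycoprotein anchored in the outer membrane that binds the mucin MUC16. Upk1b encodes a tetraspanin and Upk3b a single-pass membrane protein of the uroplakin family, best known from the plaques of the urothelium. Lrrn4 encodes a transmembrane protein with leucine-rich repeats, and Wt1 a zinc finger transcription factor of the mesothelium and of some omental fibroblasts.

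With 1 library per genotype there was no spread between replicates and no test, so no difference here has a replicate check. FPKM counts fragments relative to transcript length and to a fragment total for the library, which allows levels of different genes to be set side by side. How that total was set for these libraries was not settled. The log2 change given for a gene is its log2(FPKM + 1) in Postn-DTR less that in WT, and thresholds such as 2-fold are set on this change, which understates the difference of genes with low FPKM. A fold printed for a gene is the ratio of the deposited FPKM. The intervals given with folds are 95% intervals of counting error alone, from fragment numbers that were estimated from low FPKM values and the coding length, and are therefore approximate. In whole tissue, fewer cells of a type and less RNA per cell cannot be told apart.

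Among the 9 genes, 2 were lower in the Postn-DTR library and 7 higher, and the median change was 0.33. Over all 13127 genes whose mean FPKM reached 1, the median change was 0.02 and 51.9% were higher. At least 2-fold lower was 1 member, Lrrn4, against 3.12% of all genes compared, and at least 2-fold higher were 0 members, against 3.88%. At a 1.5-fold threshold 1 member was lower, against 8.84% of all genes, and 3 were higher, against 9.86%: Msln, Upk1b and Krt18. At 3-fold it was 0 members either way, against 1.17% lower and 1.52% higher. Directions of the smaller changes depended on the scaling of the libraries. All FPKM together came to 542190 in the WT library and 671882 in the Postn-DTR library, and rescaling both to the same total without pancreatic acinar genes took the median change of all genes to -0.28 and left 5 members lower and 4 higher. The summed FPKM of the 9 genes was 542.1 in the WT library and 595.1 in the Postn-DTR library, a ratio of 1.10. As a share of all FPKM it was 0.09999% and 0.0886%, a ratio of 0.886, so the direction of the sum turned with the denominator.

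**Figure D1:**
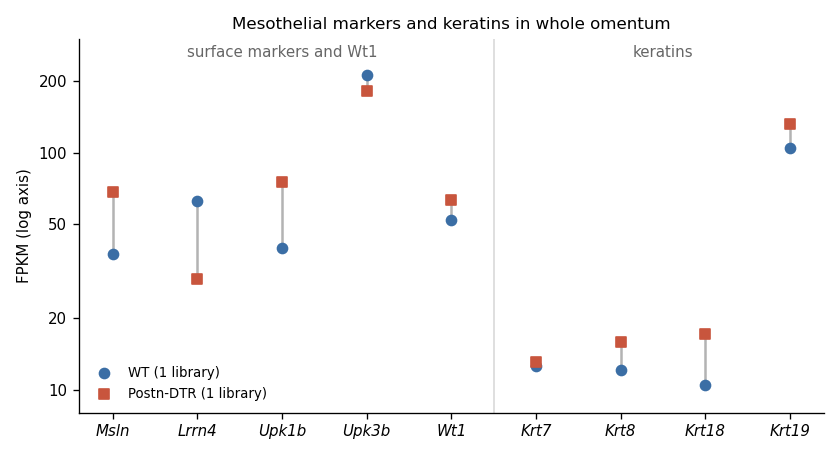
FPKM (log axis) of the 9 measured genes in the WT library (circles) and the Postn-DTR library (squares), with a grey line joining the values of a gene. Lrrn4 is the gene with the widest gap downwards, from 62.7 to 29.2, and Upk1b and Msln have the widest gaps upwards.

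Upstream sequence is shown for 4 members, both genes that were lower and the keratin pair Krt8 and Krt18, whose RefSeq starts lie 23874 bp apart on chromosome 15 and point away from each other. RefSeq (GRCm38.p6) gave a promoter entry for 5 of the 9 measured genes, each with 250 bases before the start. The GENCODE genes of Lrrn4, Krt8 and Krt18 begin further upstream and take in the last 29, 140 and 36 of these bases, which are not printed. That of Krt7 takes in all 250, so Krt7 has no line. Each line gives the rest, 5′ to 3′ on the strand of the gene. Capitals mark AGGTCA, the half-site recognised by many nuclear receptors.
Lrrn4, chr2:132880892-132881112, minus strand: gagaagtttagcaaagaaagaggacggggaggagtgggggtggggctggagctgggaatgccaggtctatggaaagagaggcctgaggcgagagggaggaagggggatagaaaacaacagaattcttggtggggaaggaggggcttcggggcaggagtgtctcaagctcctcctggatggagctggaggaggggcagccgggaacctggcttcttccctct
Upk3b, chr5:136038246-136038495, plus strand: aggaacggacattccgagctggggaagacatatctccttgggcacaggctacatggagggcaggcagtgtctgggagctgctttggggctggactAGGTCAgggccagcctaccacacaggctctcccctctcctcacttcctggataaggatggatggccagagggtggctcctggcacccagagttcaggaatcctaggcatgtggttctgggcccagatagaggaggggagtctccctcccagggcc
Krt8, chr15:102004483-102004592, minus strand: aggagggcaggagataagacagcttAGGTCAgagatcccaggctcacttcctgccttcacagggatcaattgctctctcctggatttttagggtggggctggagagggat
Krt18, chr15:102027966-102028179, plus strand: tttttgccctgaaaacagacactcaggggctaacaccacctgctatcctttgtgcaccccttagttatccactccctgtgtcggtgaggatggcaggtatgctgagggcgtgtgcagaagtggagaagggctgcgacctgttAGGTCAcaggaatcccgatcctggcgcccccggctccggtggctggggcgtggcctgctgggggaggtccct

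AGGTCA, searched on both strands, began 8 bp before the RefSeq start in Lrrn4, beyond the bases printed, 155 bp in Upk3b, 225 bp in Krt8 and 108 bp in Krt18. In Krt7, the fifth entry, it began at base 16 of the transcript. All 5 entries of 300 bases thus held it, as did 16.3% of the 32851 promoters of that length. This motif was chosen after the sequences had been read, and a match of these letters is not evidence of a bound site. Other motifs were searched on both strands in the same 300 bases. TATAAA was in Krt8, across the RefSeq start, and in 13.6% of all promoters. GGGCGG, the GC box, was in Krt7, with 4 matches that lie inside its GENCODE gene, and in 35.7% of all promoters. Neither TGANTCA, an AP-1 site, nor GCGGGGGCG, a site of the WT1 and EGR type, was in any of the 5, and they were in 7.81% and 2.91% of all promoters.

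Lrrn4 was the member with the largest difference. Lrrn4 (ENSMUSG00000043110, chromosome 2, 132868305 to 132880891 on the minus strand, GRCm38) was at 62.7 FPKM in the WT library and at 29.2 in the Postn-DTR library. It was 2.15-fold lower (counting interval 2.01 to 2.29), a change of -1.08, and 2.67% of all genes compared had a change as negative. From the third of the 9 genes by level in WT it became the sixth in Postn-DTR. The change lay between -1.41 and -0.99 over the scalings and pseudocounts tried, and it passed 2-fold under all of them but a pseudocount of 5.

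Msln and Upk1b lay on the other side by similar amounts. Msln (ENSMUSG00000063011, chromosome 17, 25748613 to 25754378 on the minus strand) was at 37.2 FPKM in the WT library and at 67.9 in the Postn-DTR library, which was 1.83-fold higher (1.71 to 1.95) with a change of 0.85. Upk1b (ENSMUSG00000049436, chromosome 16, 38773184 to 38800328 on the minus strand) was at 39.4 and 75.3, or 1.91-fold higher (1.72 to 2.13) with a change of 0.92. A change as high was found for 5.23% of all genes in the case of Msln and for 4.59% in the case of Upk1b. Both were higher under every scaling and pseudocount tried, with lowest changes of 0.51 for Msln and 0.58 for Upk1b at equal totals. The FPKM ratio of Upk1b to Msln was 1.06 in WT and 1.11 in Postn-DTR, so these genes kept nearly the same proportion.

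The most abundant member, Upk3b (ENSMUSG00000042985, chromosome 5, 136038496 to 136046487 on the plus strand), was at 211.6 FPKM in the WT library and at 181.9 in the Postn-DTR library. The change was -0.22, a 1.16-fold lower value (1.10 to 1.22), and it stayed negative under all alternatives tried, down to -0.56. Only 2.75% of genes compared had an FPKM as high in WT and 3.66% in Postn-DTR. The partner tetraspanin gene Upk1b moved the other way, and the FPKM ratio of Upk3b to Upk1b went from 5.37 to 2.42. This ratio is taken within a library and does not depend on the scaling between libraries. The other uroplakin genes were near 0, with Upk1a at 0.970 and 0.750, and Upk2, Upk3a and Upk3bl at 0 or under 0.05 FPKM in each library.

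Wt1 (ENSMUSG00000016458, chromosome 2, 105126529 to 105173616 on the plus strand) was at 52.1 FPKM in the WT library and at 63.2 in the Postn-DTR library, a change of 0.27 that turned to -0.063 at equal totals. Wt1os, the antisense RNA of the locus, was at 2.27 and 2.79, and whether strand was used in the authors' counting is not given in the sources used here. The FPKM of Msln relative to Wt1 went from 0.714 to 1.07, or 1.51-fold (1.37 to 1.65).

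The largest shift within the set was between the surface markers themselves. The FPKM ratio of Msln to Lrrn4 was 0.593 in WT and 2.33 in Postn-DTR, a 3.92-fold difference (3.59 to 4.29), and that of Upk1b to Lrrn4 went from 0.629 to 2.58, a 4.10-fold difference (3.63 to 4.64). Lrrn4 thus stood above Msln and Upk1b in WT and below both in Postn-DTR. The ratio of Upk3b to Lrrn4 also went up, from 3.38 to 6.24. Ratios within a library carry no scaling between libraries, but with 1 library each they have no replicate check either.

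**Figure D2:**
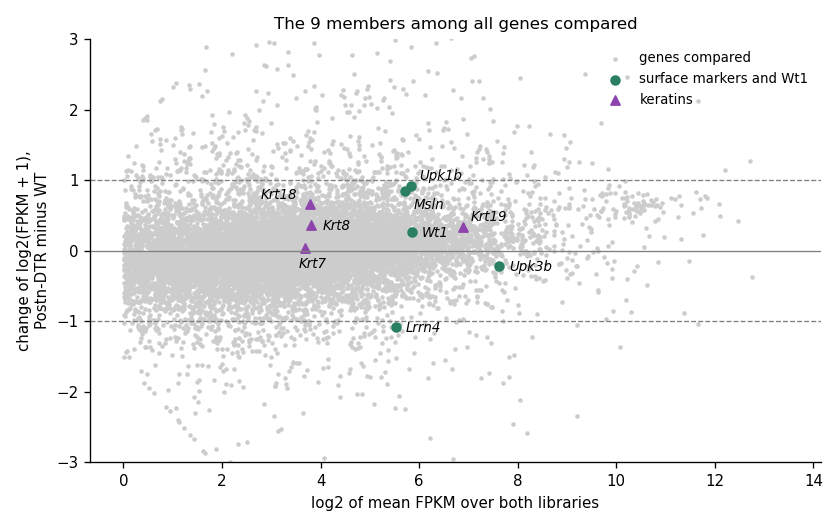
Log2 change (y axis, Postn-DTR minus WT) against the log2 of the mean FPKM for all 13127 genes compared (grey), the surface markers and Wt1 (green circles) and the keratins (purple triangles). Dashed lines mark 2-fold, and 102 genes lie outside the plotted range of changes. Lrrn4 is the member past 2-fold, at -1.08, and the other 8 lie between -0.22 and 0.92.

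The 4 keratins were all higher in the deposited values, with a median change of 0.35 and none past 2-fold. Krt18 (ENSMUSG00000023043, chromosome 15, 102028180 to 102032027 on the plus strand) differed most, at 10.5 FPKM in the WT library and at 17.2 in the Postn-DTR library, or 1.64-fold (1.40 to 1.91), a change of 0.66. Its partner Krt8 (ENSMUSG00000049382, chromosome 15, 101996698 to 102004482 on the minus strand) was at 12.1 and 15.9, or 1.32-fold (1.15 to 1.51), a change of 0.37. Krt8 has a processed pseudogene on another chromosome, Krt8-ps, so part of its FPKM could be shared with that copy. Krt18 and Krt8 were the keratins that stayed higher under every scaling, down to 0.34 and 0.052.

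Krt19 (ENSMUSG00000020911, chromosome 11, 100140810 to 100148665 on the minus strand) was by far the most abundant keratin. It was at 104.1 FPKM in the WT library and at 131.5 in the Postn-DTR library, a change of 0.33 that became -0.0052 at equal totals. It made up 74.7% of the summed FPKM of the 4 keratins in WT and 74.0% in Postn-DTR. Krt7 (ENSMUSG00000023039, chromosome 15, 101411043 to 101430313 on the plus strand) was at 12.6 and 13.0, a ratio of 1.03 whose counting interval, 0.887 to 1.20, held 1. The change of 0.04 turned to -0.055 at an equal 75th percentile and to -0.27 at equal totals.

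Since type I and type II chains pair, their balance was also read within each library. The type I sum, Krt18 and Krt19, was at 114.6 FPKM in the WT library and at 148.7 in the Postn-DTR library, and the type II sum, Krt7 and Krt8, at 24.7 and 28.9. The ratio of type I to type II was 4.64 in WT and 5.14 in Postn-DTR, and no counting interval was computed for it. These sums hold members only. They leave out Krt80, a type II keratin at 13.0 FPKM in WT and 19.4 in Postn-DTR, and less abundant keratins. The ratio therefore depends on the choice of chains. For the pair itself, Krt18 relative to Krt8 went from 0.869 to 1.08, a 1.24-fold difference whose counting interval, with an upper end of 1.52, only just left out 1. The 3 less abundant keratins changed places. In WT the order was Krt7, Krt8, Krt18 and in Postn-DTR it was Krt18, Krt8, Krt7. These neighbours were close, with the ratio of Krt7 to Krt8 at 1.05 and 0.817 in the libraries.

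**Figure D3:**
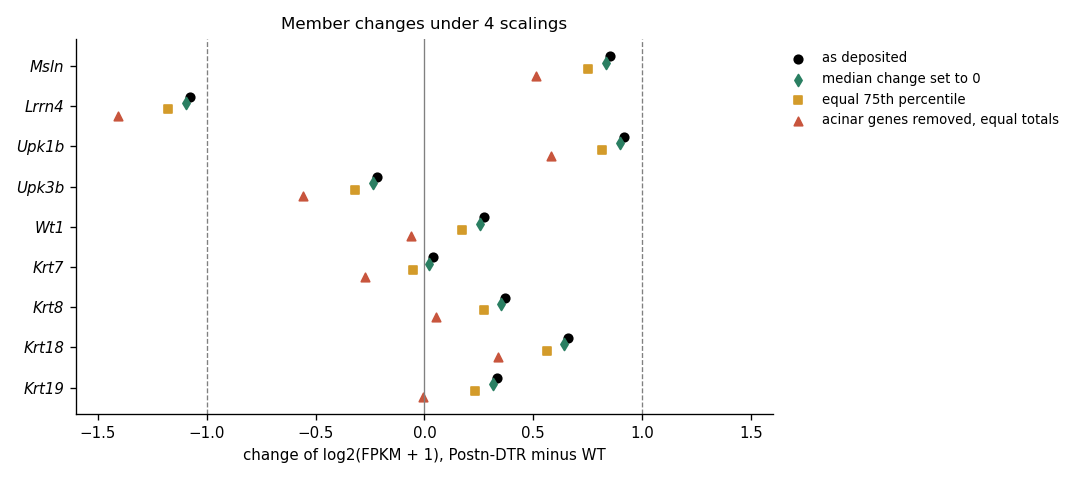
Log2 change (x axis, Postn-DTR minus WT) of each member as deposited (black), with the median change of all genes set to 0 (green), at an equal 75th percentile (yellow) and at equal totals without acinar genes (red). Msln, Upk1b, Krt8 and Krt18 stay above 0 and Lrrn4 and Upk3b below it under these 4 scalings, while Wt1, Krt7 and Krt19 cross it.

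Other keratin genes were mostly silent. Of 48 further keratin genes, 25 were listed at 0 in both libraries and 6 passed the expression minimum. The 4 members held 83.4% of the summed FPKM of all keratin genes in WT and 84.1% in Postn-DTR. Krt80, a type II keratin, was at 13.0 and 19.4, a level like that of Krt7, and 1.49-fold higher in Postn-DTR. Krt23, a type I keratin, was at 1.77 and 7.51, a change of 1.62 and the 1 keratin compared that passed 2-fold upwards on the log2(FPKM + 1) scale. Krt76 was at 6.43 and 1.65, a change of -1.49 and the 1 that passed it downwards. Krt79 was at 1.56 and 0.613, a change of -0.67, although its FPKM was 2.55-fold lower. Krt222 was at 1.88 and 1.39 and Krt10 at 1.34 and 1.43. The keratins of stratified epithelium Krt5 and Krt14 were at 0 in both libraries and at 0.177 and 0.455.

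Relatives of the surface markers were read in the same way. Lrrn4cl, which encodes a small membrane protein named for its similarity to LRRN4, was at 12.7 FPKM in the WT library and at 27.5 in the Postn-DTR library, or 2.17-fold higher (1.79 to 2.64) with a change of 1.06. It therefore moved against Lrrn4, and the FPKM ratio of Lrrn4cl to Lrrn4 went from 0.202 to 0.944. Lrrn2 was at 3.82 and 4.74. Mslnl, the neighbouring relative of Msln, was at 0.0354 and 0.239. Of the other membrane mucins, 5 had a value and 1 passed the expression minimum, Muc1, at 1.997 and 1.93.

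A list of 16 other mesothelial genes was compared to see whether the members stood for the wider set. Of the 13 that passed the expression minimum, 6 were lower and 7 higher, with a median change of 0.01, and the sign of this median turned with scaling. None was at least 2-fold lower and 1 was at least 2-fold higher. That gene was Slpi, a secreted protease inhibitor that leukocytes and many epithelia also make, at 64.9 FPKM in the WT library and at 627.5 in the Postn-DTR library, a change of 3.25. By the mean of both libraries, the most abundant of the list after Slpi were Nkain4, which encodes a small membrane protein that interacts with the sodium pump, at 121.3 and 127.5, and Efemp1, a matrix protein that fibroblasts also make, at 136.5 and 87.0. Dmkn, which encodes dermokine, was at 39.7 and 72.3, or 1.82-fold (1.70 to 1.95), and Gata6, a transcription factor that peritoneal macrophages also use, was at 18.6 and 33.1. Pkhd1l1, which encodes a large membrane protein, was at 15.4 and 8.23, or 0.535-fold (0.510 to 0.562). The mesothelial transcription factor gene Bnc1 was at 8.20 and 7.89, and Rspo1, which encodes a secreted enhancer of Wnt signalling, was at 68.4 and 60.2. Thus the genes of this list spread to both sides, as the members did. Calb2, which encodes calretinin, was listed at 0 in WT and at 0.338 in Postn-DTR, and Cdh1, the E-cadherin gene, was at 0.163 and 0.148.

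**Figure D4:**
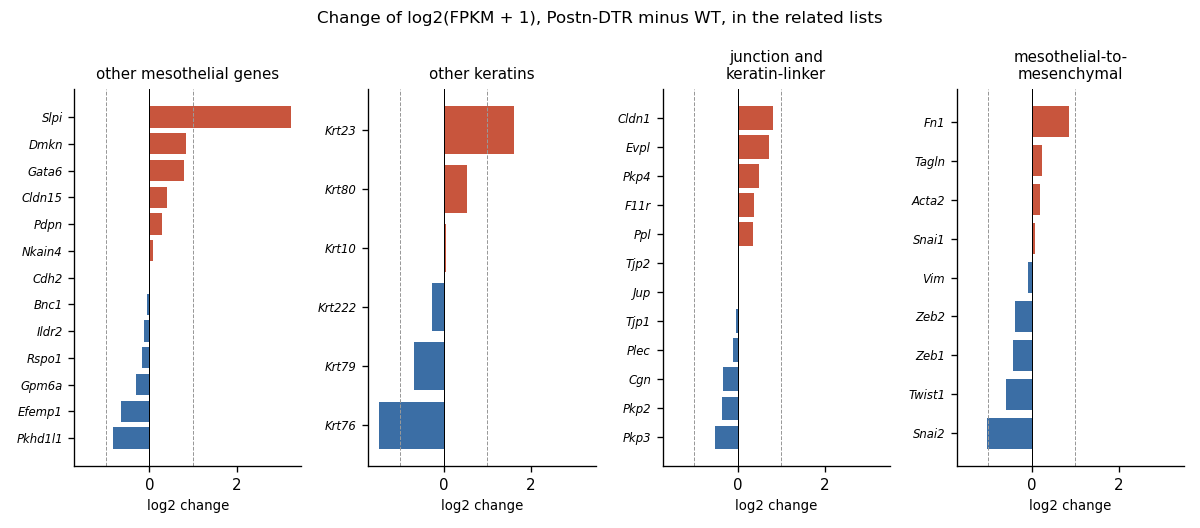
Log2 change (x axis, Postn-DTR minus WT) of the genes that passed the expression minimum in 4 related lists; bars start at 0, red is higher and blue lower in Postn-DTR, and dashed lines mark 2-fold. Slpi and Krt23 are past 2-fold upwards and Krt76 and Snai2 downwards, and no junction gene compared passes it.

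Of 16 genes of the junctions and of the proteins that link keratin filaments to them 12 were compared, with 5 lower, 7 higher and a median change of 0.02. None of the 12 passed 2-fold on the log2(FPKM + 1) scale, while the FPKM of Cldn1, a tight junction gene, was 2.03-fold higher (1.28 to 3.29) on an estimated 29 and 59 fragments. Jup, which encodes plakoglobin, was at 26.8 and 27.2, F11r, a tight junction adhesion molecule, at 31.2 and 41.1, and Plec, the linker plectin, at 23.1 and 21.3. The desmoplakin gene Dsp was nearly silent, at 0.123 and 0.141. A list of 9 genes tied to the change of mesothelial cells towards a mesenchymal state was also read, although fibroblasts and other stromal cells make most of them. Here 5 were lower and 4 higher, with a median change of -0.080. Snai2, a transcriptional repressor, was at 3.82 and 1.38, a change of -1.02. Of the other transcription factors of the list, Twist1 (7.12 and 4.39), Zeb1 (10.4 and 7.50) and Zeb2 (17.9 and 13.4) were lower. Snai1 (12.4 and 13.0) was higher. Vim, the vimentin gene, was at 883.5 and 835.5, Fn1, the fibronectin gene, at 459.1 and 836.8, and Tagln at 127.7 and 151.4.

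Keratins are also made by pancreatic acinar and duct cells, and the RNA of acinar genes differed between the libraries. All 27 acinar genes compared were at least 2-fold lower in Postn-DTR, and the 29 genes of the list summed to 12475 FPKM in the WT library and 21.6 in the Postn-DTR library, with 1 and 10 of them at 0. Krt8 and Krt18 were higher in the Postn-DTR library, and the part of acinar RNA in their values was not tested. Of 10 pancreatic duct genes 4 were compared, with 1 lower and 3 higher, and the list summed to 86.3 and 96.8. Most of the WT sum came from Tff2, with 68.7 there and a listed 0 in Postn-DTR. Most of the Postn-DTR sum came from Spp1, which macrophages also make, with 1.02 and 78.3. Bicc1 (14.5 and 16.2) and Sctr (1.05 and 1.74, or 1.66-fold with an interval of 1.04 to 2.74) were the other duct genes compared, both higher. Under the expression minimum, Cftr had 0.0844 and 0.0476, and Pkhd1 had 0 in both libraries. Of 12 genes of other epithelia 3 passed the expression minimum. Epcam was at 1.20 and 2.61, or 2.18-fold higher (1.29 to 3.87) on an estimated 21 and 47 fragments. Cldn3 was at 2.02 and 2.42 and Spint2 at 24.5 and 22.97. The list summed to 29.6 and 30.1, most of it from Spint2, with 2 and 4 of its genes at 0. The part of pancreatic or other epithelial RNA in the keratin values was not tested.

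Genes of other cell types in the omentum were also read. The 10 fibroblast genes had a median change of -0.44, with 2 at least 2-fold lower, and summed to 4401 FPKM in the WT library and 3735 in the Postn-DTR library. The 7 macrophage genes were all higher, with a median of 1.69, and summed to 2903 and 4846. All of the 9 T and B cell genes were lower, the median being -1.005, and they summed to 505.1 and 349.8. The 7 endothelial genes had a median of 0.01 and summed to 258.6 and 266.1, and the 8 adipocyte genes had a median of -0.48 and summed to 14793 and 14099. Their part in the member values was not tested. Postn itself was at 58.3 in WT and 16.2 in the library labelled Postn-DTR.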

How the data were processed

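RNA from whole omentum was measured in 1 WT and 1 Postn-DTR library, grouped by the genotype label. Per the labels, a TruSeq stranded mRNA kit, which selects polyadenylated RNA, was used. The authors deposited FPKM, 1 value per gene symbol. The submitters' processing notes name TopHat2 2.1.1, Bowtie2 2.2.8, SAMtools 0.1.18, Cuffdiff 2.2.1 and the build mm10. The study's methods, in a paragraph on sorted cells, name another kit (NEBNext Ultra RNA) and single-end reads, and which kit and layout hold for these libraries was not settled. Annotation and depth are not given in the sources used here.

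The change of a gene was taken on log2(FPKM + 1), Postn-DTR less WT, where the mean FPKM reached 1. With 1 library per genotype no test was run. All members were named, and from other lists the genes past 2-fold and up to 3 of the most abundant. The lists of acinar genes and of other omental cell types are given by counts and sums, without the gene names that this rule also chose. Genes outside this rule were chosen after their values were seen. Members and lists were chosen with earlier results of these data known. An item of these lists is not reported here. Positions were taken from GENCODE M21 (GRCm38), which matched all 9 measured members, and promoters from RefSeq (GRCm38.p6). Depth was estimated by finding the fragment total and length correction at which FPKM under 0.3 of genes with 1 annotated transcript came closest to whole fragments. This gave about 23200000 fragments in WT and 24300000 in Postn-DTR, with 70.9% and 71.4% of low values within 0.05 of a whole number. Fragment numbers of a gene used its coding length, which is shorter than the transcript and so widens the exact binomial (Clopper-Pearson) intervals. For the ratio of 2 genes, the interval used the normal approximation on the log scale. Alternatives were pseudocounts, filters, scalings and fold thresholds. Python 3.11.15, numpy 2.4.6, pandas 2.3.3, scipy 1.17.1 and matplotlib 3.10.9 were used.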

Additional observations from a re-analysis of the deposited data

How the results depend on the processing

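Of 63 recalculated member changes, 4 turned sign and were counted apart, whatever the size of the move. Another 48 moved by no more than the distance from the middle of the counting interval to its ends (log2 scale). The remaining 11 moved by more. The filters on mean FPKM dropped no member and cannot alter its change, so their values were bound to be among the 48. The sign turned for Wt1 (-0.063), Krt7 (-0.27) and Krt19 (-0.0052) at equal totals without acinar genes, and for Krt7 (-0.055) at an equal 75th percentile. Equal totals also turned the median change of the 9 members (-0.0052), of the surface markers and Wt1 (-0.063), of the other mesothelial genes (-0.27) and of the other epithelial genes (-0.054), and took that of the keratins to 0.023. At an equal 75th percentile these medians were 0.23 for the members, 0.17 for the surface markers and Wt1 and -0.068 for the other mesothelial genes, whose median was -0.011 after centring. Without a filter on low values the last list was at -0.0058 and the other epithelial genes at -0.016. The count of members at least 2-fold lower was 0 with a pseudocount of 5 and at 3-fold, and 3 were higher at 1.5-fold. Over all genes, the 410 lower and 509 higher became 643 and 642 (pseudocount 0.1), 168 and 287 (pseudocount 5), 173 and 303 (mean FPKM from 10), 761 and 297 (equal totals), 1160 and 1294 (1.5-fold) and 153 and 199 (3-fold). The ratio of type I to type II keratins among the members kept its direction with both other pseudocounts. These are small beside the sums and could hardly have turned it, so this is no check of the ratio. No replicate could be left out. No paired analysis was possible because there was 1 library per genotype. By the estimate from FPKM, each member had at least 263 fragments in each library, while the spread between mice is unknown.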

Other observations

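Among listed genes under the expression minimum, 4 with wide FPKM ratios were chosen after their values were seen, and they went both ways. Dsc2, which encodes the desmosomal cadherin desmocollin-2, was at 0.978 FPKM in the WT library and at 0.0295 in the Postn-DTR library, or an estimated 57 and 2 fragments, a ratio of 0.0302 with a counting interval of 0.00399 to 0.128. Lrrn1, a relative of Lrrn4, was at 0.942 and 0.105, or an estimated 43 and 5 fragments, a ratio of 0.112 (0.0347 to 0.283). In the other direction, Ocln, which encodes the tight junction protein occludin, was at 0.115 and 0.874, or an estimated 4 and 29 fragments, a ratio of 7.61 (2.47 to 27.5). Muc13, a membrane mucin gene, was at 0.0155 and 0.465, or an estimated 1 and 17 fragments, a ratio of 29.97 (2.58 to 687.3). The desmosomal genes Pkp2 (4.05 and 2.96) and Pkp3 (4.08 and 2.55) were lower by less. Evpl, which encodes envoplakin, was at 2.17 and 4.20, and Cldn1 was at 2.81 and 5.69. With 1 library per genotype, none of these differences has a replicate check.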
